A study of Mus musculus with 9 samples.

Results

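The control arrays of an Apela knockdown study in mouse embryonic stem (ES) cells were described on their own: 3 of 9 arrays, all labelled shLuc, with each gene represented by its brightest probe set carrying a single gene symbol and genes ranked by mean level. The cells were R1E, a mouse ES line, transduced with a lentivirus carrying a short hairpin RNA against luciferase, a sequence these cells do not carry. The medium was KO-DMEM with serum (15% FBS) and the cytokine LIF, leukemia inhibitory factor, at 1000 units/ml, and no drug was given. The hairpin is a control for lentiviral transduction, so the levels are those of transduced cells, and untransduced cells were not described. The labels call the 3 arrays repeats without saying whether they came from separate cultures, so an SD below covers the spread between arrays, which may be technical. Total RNA was hybridised to Affymetrix gene arrays, and all values are log2 RMA levels.

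Mouse ES cells are derived from the epiblast of the preimplantation embryo. In serum with LIF they hold a self-renewing state in which Pou5f1 (Oct4), Sox2 and Nanog form a core network, LIF acts through the Lifr and Il6st receptor and Stat3, and FGF4 made by the cells themselves acts through ERK and favours exit from this state. They divide fast with a short G1 phase, rely heavily on glycolysis, and keep many developmental regulators silent under polycomb complexes.

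The 28853 probe sets held 21775 with a single gene symbol, 1578 with several symbols and 5500 with none, and the ranking comprised 19938 genes. Levels ran from 3.96 to 13.40, with a median of 7.27 and quartiles of 5.73 and 9.10. The 3 arrays gave nearly the same order, with Spearman correlations across genes of 0.9973 to 0.9990 per pair and array medians of 7.04 to 7.05. The median SD between arrays was 0.056 per gene. Probe sets differ in how strongly they respond to the same amount of RNA, and the 776 genes with exactly 2 probe sets showed how much: the pair differed by a median of 0.66 on the log2 scale, with a 90th percentile of 2.69. A place in the ranking is therefore given as a band (top, middle, floor), and no gene is ranked against a neighbour as a difference in RNA amount.

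The floor was set with 1229 genes for olfactory, vomeronasal and taste receptors, which sensory neurons and taste cells use. Their median level was 4.77 and their 95th percentile lay between 6.01 and 6.09, depending on the array. Of all genes, 13620 (68.3%) were above that percentile on all 3 arrays, and this is called the receptor background here. It is a low bar: of 15 measured markers of blood, muscle and liver, 8 passed it, among them Des, the muscle intermediate filament, at 8.17, 8.20 and 8.04. Above the highest of these markers on every array lay 7344 genes (36.8%). Counts of families and lists in these bands are to be read beside the 68.3% and 36.8% of all genes. The top 5% of the ranking (5% of all genes by construction, 997 genes) started at 10.92, with Pfkl, Impact and Cdc20 just inside with means of 10.93, 10.92 and 10.92, and Mga, Cenpa and Tfrc just outside with means of 10.90, 10.89 and 10.89.

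**Figure D1:**
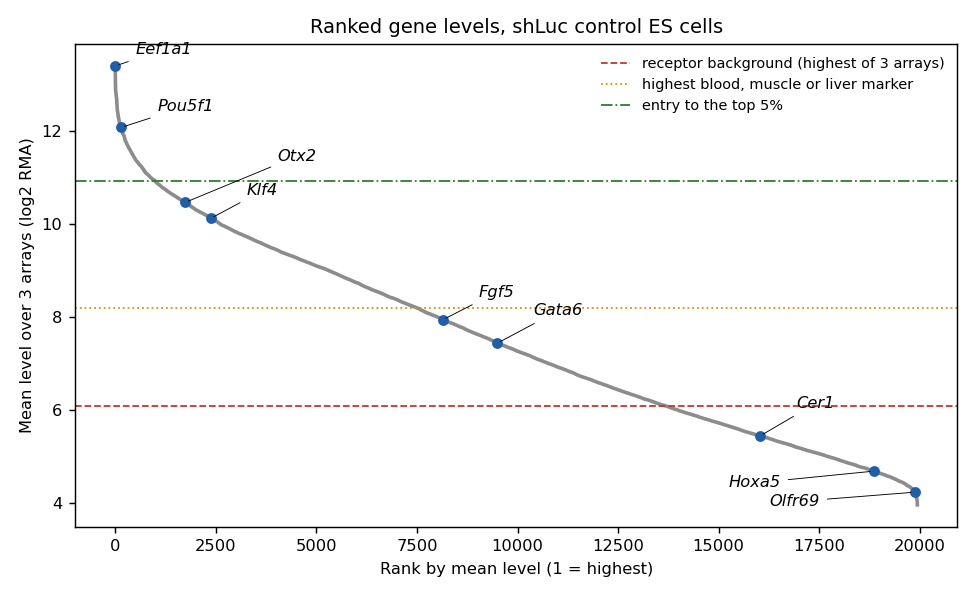
Mean level (log2 RMA, y axis) of each of the 19938 genes against its rank (x axis, 1 = highest) over the 3 shLuc arrays, with 9 genes marked and horizontal lines at the receptor background, at the highest blood, muscle or liver marker, and at the entry to the top 5%. Pou5f1 sat far above the entry to the top 5%, Fgf5 and Gata6 between both lower lines, and Cer1, Hoxa5 and Olfr69 below the receptor background.

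The machinery of protein synthesis filled the top of the ranking. Eef1a1, the elongation factor that brings aminoacyl-tRNA to the ribosome, was the highest gene at 13.40, 13.39 and 13.39. Of the 20 highest genes, Rps6, Rpl10, Rplp1, Rpl28, Rps2, Rps20, Rps15 and Rpl21 encode ribosomal proteins, with means from 12.81 to 13.02, and Eif4a1 (12.91) and Eef2 (12.86) encode an initiation helicase and the translocation factor. The others were Actb (13.16), the cytoplasmic actin; H4c4 (13.05), a replication-dependent histone H4 gene; Txn1 (12.95), the cytosolic thioredoxin; Hspa8 (12.89), the constitutive Hsp70 chaperone; Tpt1 (12.84); Rn7sk (13.23), the RNA that holds the elongation kinase P-TEFb in an inactive particle; Rny3 (12.82), a Y RNA; Baiap2l1 (13.30); and Dppa5a (12.82). Dppa5a, which encodes an RNA-binding protein of early embryos and germ cells, was the pluripotency gene in this group, with 12.81, 12.86 and 12.78 on the arrays.

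Among 61 genes with ribosomal protein symbols, 60 were above the receptor background and 49 were in the top 5%, and the median member stood at percentile 99.2 of all genes. The member at the floor was Rpl3l, the muscle paralog of Rpl3, at 5.67, 5.67 and 5.66. Translation initiation and elongation factors were all above background (57 of 57), with 25 in the top 5% and a median percentile of 93.5. The chaperonin that folds actin and tubulin had 8 of 9 measured members in the top 5%, led by Cct2 (12.48), and the ninth, the testis form Cct6b, lay at 5.61. The proteasome had 48 of 50 members above background and 18 in the top 5%, led by Psmb3 (12.60). Its lowest member was Psmb8 (5.47), a catalytic subunit of the immunoproteasome. Respiratory chain and ATP synthase genes had 77 of 79 above background and 30 in the top 5%, led by Atp5b (12.78). All 77 mitochondrial ribosomal proteins were above the receptor background, 70 were also above every blood, muscle and liver marker, 7 reached the top 5%, and their median percentile was 81.6.

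RNA processing and transcription factors of the general machinery followed. All 17 hnRNP genes were above background, 9 of them in the top 5% and led by Hnrnpk (12.43), Hnrnpab (12.16) and Hnrnpu (12.16). Sm and LSm proteins (23 of 23 above, 12 in the top 5%), SR splicing factors (10 of 10, 4) and RNA polymerase II subunits (12 of 12, 6) lay in the same region. The 30 Mediator subunits, which bridge transcription factors and the polymerase, were all above background and none reached the top 5%, with a median percentile of 78.6 and Med1 the highest at 10.80. In the 200 highest genes, 85 belonged to families of translation, splicing, proteasome, chaperone, energy, tubulin and replication histone genes or to glycolysis. Of these 85, 38 encoded ribosomal proteins. Core and naive pluripotency genes accounted for 10 of these 200, and no predicted gene was among them.

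Glycolysis genes formed a second group at the top, with 12 of 23 measured members in the top 5%. Aldoa, the muscle and embryonic aldolase, read 12.72, 12.77 and 12.74, and Ldha, which turns pyruvate into lactate, read 12.61, 12.72 and 12.76. The glucose transporters Slc2a3 (12.63) and Slc2a1 (12.56) were in the same band. Hk1, hexokinase 1, stood at 12.75 by its brighter probe set and at 9.10 by its other. The members at the floor were forms of other tissues: Pgk2 (4.80) and Gapdhs (5.92), both of spermatogenesis, and Hk3 (5.98), the hexokinase of blood cells. Of 16 measured genes of 1-carbon and threonine metabolism, 15 were above background, led by Psat1 (11.61), Mthfd1 (11.13), Gldc (11.04) and Shmt2 (10.98), which feed serine and glycine carbon into nucleotides.

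**Figure D2:**
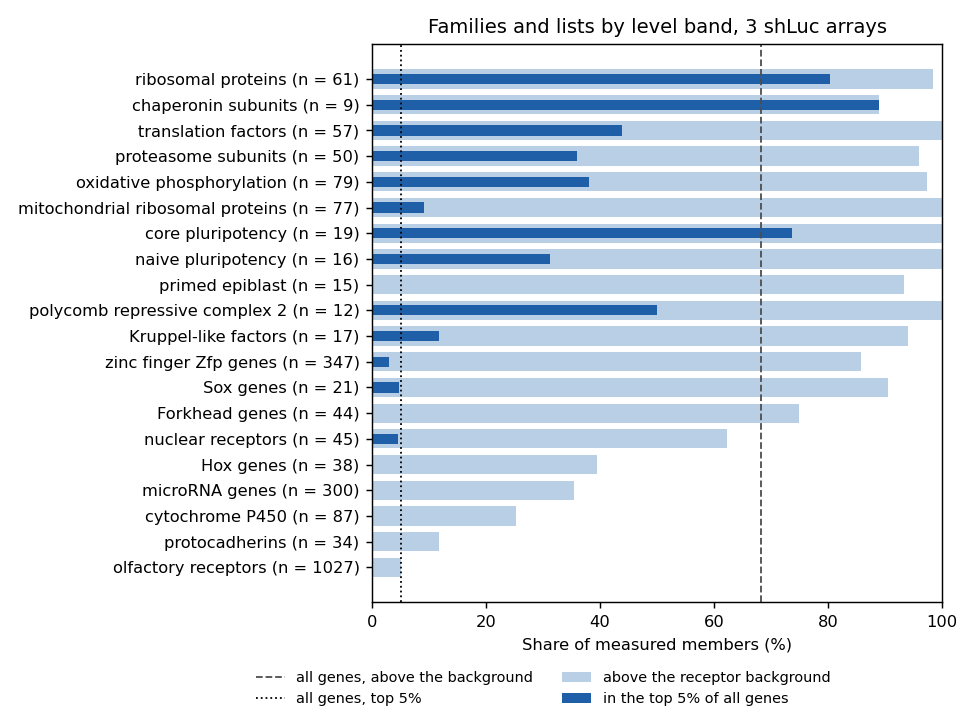
Share of measured members (x axis, percent) of 20 gene families and lists above the receptor background (wide bars) and in the top 5% of all genes (narrow bars), over the 3 shLuc arrays, with n as the number of members and lines at the values for all genes. Ribosomal proteins and chaperonin subunits had most members in the top 5%, core pluripotency genes came next, and Hox genes, protocadherins and olfactory receptors were among those with none.

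Core pluripotency regulators lay mostly in the top 5%. All 19 measured members of the list were above the receptor background on every array, all 19 were also above every blood, muscle and liver marker, and 14 were in the top 5%; their median percentile was 98.1. Pou5f1, the POU-domain factor without which the pluripotent lineage is lost, read 11.99, 12.05 and 12.18. Its partner Sox2 read 12.10, 12.13 and 12.05. Nanog, the homeodomain factor that sustains self-renewal, read 12.28, 12.24 and 12.32. All 3 were thus far inside the top 5% on every array. The other leading members were Trim28 (12.31), the corepressor of KRAB zinc finger proteins, and Dppa2 (12.28), a chromatin-associated factor of early embryos. L1td1, an RNA-binding protein derived from a LINE element, was the lowest member at 10.16 ± 0.23 (SD, n = 3), still above the highest blood, muscle or liver marker on each array. In RNA from a whole culture, fewer cells of a type and less RNA per cell cannot be told apart, and this holds for every level given here.

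Genes of the naive state spread over a wider range. All 16 measured members were above background and 5 were in the top 5%. Zfp57, a zinc finger protein that protects methylation at imprinted regions, read 11.90, 11.86 and 12.04, and Nr0b1 (Dax1), an orphan nuclear receptor bound to the Pou5f1 network, read 11.72, 11.68 and 11.80. Klf5 (11.28), Fbxo15 (11.25) and Tfcp2l1 (10.95) completed the members in the top 5%. Klf2 (10.46) and Klf4 (10.12), reprogramming factors of the same Kruppel-like family, and Tbx3 (9.91) were outside that band. The lowest were Prdm14 (8.94 ± 0.07, SD, n = 3), Gbx2 (8.84 ± 0.28) and Dppa3 (8.25 ± 0.08). Dppa3 (Stella), a maternal and germ cell factor known to be expressed in only some cells of serum cultures, read 8.16, 8.31 and 8.28. It was the naive member that did not pass every blood, muscle and liver marker, since Des was above it in replicate 1.

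Of the 15 genes that mark the primed epiblast, the state after implantation, 14 were above background and none was in the top 5%; the median percentile was 72.7. Zic2 (10.69), Zic5 (10.62), Otx2 (10.46) and Car4 (10.11) were the highest. Otx2, a homeodomain factor that drives the move from the naive to the primed state, read 10.43, 10.52 and 10.43. Fgf5, the classical marker of the primed epiblast, read 7.92, 7.88 and 8.03, below the highest blood, muscle or liver marker on each array. Cer1, a secreted Nodal and BMP antagonist, read 5.40, 5.47 and 5.46 and was the member below the receptor background. Several of these genes varied more between arrays than most: Lef1 read 8.40, 8.66 and 9.18, and Foxd3 read 8.20, 7.86 and 8.79, with replicate 3 the highest in both.

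**Figure D3:**
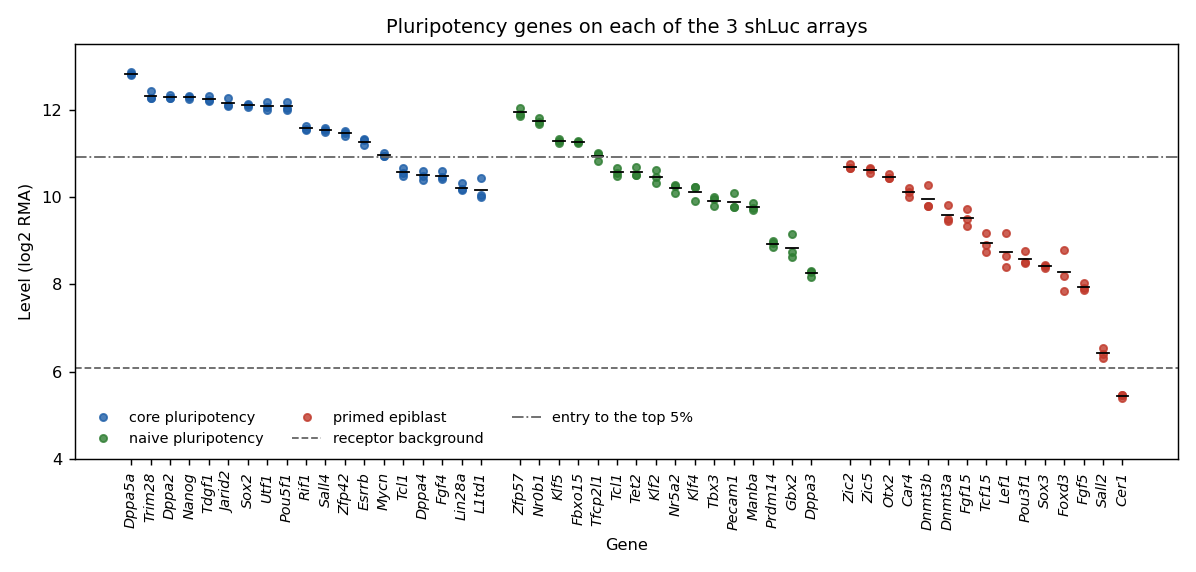
Level (log2 RMA, y axis) on each of the 3 shLuc arrays (points) with the mean (black bars) for core pluripotency, naive and primed epiblast genes (x axis), and lines at the receptor background and the entry to the top 5%. Core members lay between 10.16 and 12.82, naive members between 8.25 and 11.93, and primed members between 5.45 and 10.69; Tcl1 belongs to both of the first lists.

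The pathways that hold or release this state differed in which of their parts were high. Of the LIF pathway, 13 of 14 measured genes were above background and none was in the top 5%. The shared receptor subunit Il6st (gp130) read 10.58, 10.65 and 10.58, the kinase Jak1 read 9.82, 9.93 and 9.92, Lifr itself read 9.66, 9.80 and 9.68, and Stat3 read 9.55, 9.70 and 9.60. Osmr, the receptor for the related cytokine oncostatin M, lay at the floor (5.25 ± 0.01, SD, n = 3). Lif, the ligand that the medium supplied, read 6.19, 6.20 and 6.23, only just above the receptor background.

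In the FGF and ERK pathway, 19 of 20 measured genes were above background. The ligand Fgf4 read 10.41, 10.46 and 10.59, while Fgf2, another ligand of the family, lay at the floor (5.44). Etv5, an ETS factor induced by ERK, was the highest member (11.72) and the one in the top 5%. Nras (10.70) and Braf (10.44) came next. Across all 22 FGF ligand genes measured, 13 were above background (59.1%, against 68.3% of all genes), and Fgf4, Fgf15 (9.53) and Fgf18 led them.

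Ctnnb1 (beta-catenin), which joins E-cadherin to actin and carries the Wnt signal to the nucleus, was the highest of 22 Wnt pathway genes at 11.86, 11.91 and 11.91. It was followed by Lgr4 (10.88), Gsk3a (10.82) and Porcn (10.36). Lgr5, a stem cell marker of adult epithelia, lay at the floor (5.64). Of 19 Wnt ligand genes 12 were above the receptor background, a share near the 68.3% of all genes. None was in the top 5%, where 5% of all genes lay, and none was above the highest blood, muscle or liver marker on all 3 arrays, as 36.8% of all genes were. All 10 measured Frizzled receptors were above the receptor background, led by Fzd7 (10.40, 10.55 and 10.22), and 2 of them also lay above the highest of those markers.

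In the Nodal and BMP pathway, 28 of 31 genes were above background. Tdgf1 (Cripto), the Nodal coreceptor, read 12.21, 12.20 and 12.31, and Gdf3 (11.07), a related ligand of the TGF-beta family, Id2 (10.85) and Bmp4 (10.72) followed. Acvr1c, an alternative type I receptor for Nodal, was the lowest (5.30). Of 24 Notch and Hedgehog genes 22 were above background. Rbpj (11.60), the DNA-binding partner of Notch, and Ptch1 (11.12), the Hedgehog receptor, were in the top 5%, and the ligand Dhh was the lowest (5.87). In the apelin system, Apela, the target of the study's other hairpins, read 11.40, 11.31 and 11.19, in the top 5%. The second ligand of the same receptor, Apln, read 7.14, 7.15 and 7.13, and the receptor Aplnr was at 6.48 ± 0.03 (SD, n = 3). Both were above the receptor background but below the highest blood, muscle or liver marker.

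Chromatin regulators were among the higher genes. All 12 members of polycomb repressive complex 2, which methylates histone H3 lysine 27, were above background and 6 were in the top 5%. These were Jarid2 (12.15), Mtf2 (11.89), Rbbp4 (11.64), Suz12 (11.59), Ezh2 (11.50) and Rbbp7 (11.30). Eed (10.77), Epop (9.81), Ezh1 (9.77), Aebp2 (9.51), Phf19 (8.53) and Phf1 (7.52) were lower. In polycomb repressive complex 1, 17 of 18 measured members were above background, led by Phc1 (11.70), Rybp (11.65), Pcgf6 (11.36) and Rnf2 (10.78), the ubiquitin ligase. Bmi1, the alternative PCGF subunit of neural and blood stem cells, read 5.86, 5.77 and 5.78, below the receptor background.

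Tet1, which oxidises methylcytosine, read 12.29, 12.28 and 12.31 and headed the 13 measured genes of DNA methylation and demethylation. Dnmt3l (11.56), Dnmt1 (10.95) and Tet2 (10.56) came next, and Tet3, the form of the oocyte and of differentiated tissue, was the lowest (7.17). Of the NuRD corepressor all 13 members were above background and 7 in the top 5%, led by Rbbp4, Hdac1 (11.49), Gatad2b (11.42) and Rbbp7, with Chd3 the lowest (7.63). The BAF remodeller had 21 of 22 above background. Actl6a (11.98), the actin-like subunit of proliferating cells, and Smarcc1 (11.35) led it, and Actl6b, the neuronal form of the same subunit, read 6.09, 6.05 and 5.99, below background on at least 1 array. Smarca2, the ATPase whose paralog Smarca4 read 10.78, 10.84 and 10.87, sat at the edge of the background (6.10 on each array). Heterochromatin and H3K9 methylation genes (13 of 13 above, 5 in the top 5%) were led by Trim28, Cbx5 (11.43), Cbx3 (11.27) and Morc3 (11.15), and Setdb2 was the lowest (7.23). MLL and SET1 complexes (14 of 14 above) had 1 member in the top 5%, Dpy30 (11.51).

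Cell cycle genes lay mostly in the upper part of the ranking. Cdk4 (12.43), Ccna2 (11.91), Ccne1 (11.32) and Cdc25a (10.75) led 28 measured regulators of G1 and S phase, of which 27 were above background. The lowest was Cdkn2c (5.29), an inhibitor of Cdk4 and Cdk6. All 15 MCM and origin recognition genes were above background, with 7 in the top 5%, led by Mcm7 (11.69). Of 21 mitotic regulators 20 were above background and 9 in the top 5%, led by Ccnb2 (11.91), Mad2l1 (11.86), Cdk1 (11.61) and Top2a (11.61). Ccnb3, a cyclin of meiosis, was at the floor (4.69). Mycn (10.96) was the highest of 12 measured genes of the Myc and Max network and the one in the top 5%. Terc, the telomerase RNA, read 11.88, 11.95 and 11.82, while Tert, the catalytic subunit, read 8.52, 8.66 and 8.41. In cohesin and condensin, 22 of 23 genes were above background, led by Pds5a (11.52), Rad21 (11.25), Smc4 (11.20) and Smc3 (11.05). Rad21l, the meiotic form of Rad21, was at the floor (4.90).

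Of 25 measured apoptosis genes 23 were above background. Mcl1, the short-lived survival factor of the BCL2 family, read 11.68, 11.79 and 11.54, and Mdm2 (10.95) and Mdm4 (10.77), the inhibitors of p53, were also high. Cycs stood at 11.95 by its brightest probe set, but its 3 probe sets ran from 5.75 to 11.95. Casp12, an inflammatory caspase, was the lowest (4.39).

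Of 16 surface and adhesion genes of ES cells 15 were above background. Cdh1 (E-cadherin) read 11.21, 11.29 and 11.24, Alpl, the alkaline phosphatase used to stain ES colonies, read 11.11, 11.16 and 10.99, and Itga6 (10.64) and Epcam (10.53) followed. Fut4, a fucosyltransferase, was the lowest of these 16 genes (5.52), below the receptor background. Of 28 claudins 13 were above background (46.4%, against 68.3% of all genes), and Cldn6 (10.90) and Cldn4 (10.63) led them. Among imprinted genes, 18 of 20 were above background, led by Peg10 (12.07), Phlda2 (11.49), Mest (11.01) and Impact (10.92), with Usp29 the lowest (5.92). On the sex chromosomes, Eif2s3y (10.12, 10.26 and 9.98) and Uty (9.62, 9.66 and 9.74) of the Y chromosome were above every blood, muscle and liver marker. Sry, Uba1y (8.03) and Zfy1 (7.06) were above the receptor background on all 3 arrays but not above those markers on all 3, and Kdm5d (5.02), Usp9y (4.65) and Zfy2 (4.41) were at the floor. Xist, the RNA that silences an X chromosome in female cells, was below the receptor background at 5.84, 5.79 and 5.84.

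Most transcription factor families had a median near or below that of all genes. Kruppel-like factors had the highest median of those described, with 16 of 17 above background and a median percentile of 80.2, led by Klf5, Klf9 (11.08) and Klf2. Of 347 zinc finger genes with a Zfp symbol, 298 were above background, with a median percentile of 57.4; Zfp706 (11.96), Zfp57 and Zfp980 (11.68) led them. Sox genes lay near the middle: 19 of 21 were above background, but Sox2 alone was in the top 5%, followed by Sox15 (10.50) and Sox12 (9.07). In the POU family, 8 of 12 were above background (66.7%, near the 68.3% of all genes). The second highest gene after Pou5f1 was Pou3f1 at 8.49, 8.51 and 8.76. Forkhead genes had 33 of 44 above background and none in the top 5%. Nuclear receptors had 28 of 45 above background (62.2%, near it too), with a median percentile of 39.5. Their leaders were the ES cell regulators Nr0b1, Esrrb (11.27) and Nr5a2 (10.21).

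Hox genes, which pattern the body axis, had the lowest median of these families, at percentile 29.2. Of 38, 15 were above the receptor background, fewer than the 68.3% among all genes, and none was above the highest blood, muscle or liver marker. Hoxa4 (7.38), Hoxb1 (7.32) and Hoxb3 (7.01) were the highest, and Hoxa5 (4.67, 4.69 and 4.70) the lowest. Of 15 T-box genes 8 were above background (53.3%), led by Mga (10.90) and Tbx3. Of the 6 GATA genes 5 were above it and none was above the highest marker of blood, muscle or liver.

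The 399 genes within 1 percentile of the median gene held 9 genes of the lists, and the lists took in 607 of all 19938 genes, so this count is near the share in the whole ranking. The 9 were Pklr, Hnf4a, Bmp8b, Msgn1, Pmaip1, Cd3e, Col1a2, Setdb2 and E2f2. Their means ran from 7.23 to 7.34. Hnf4a, a factor of visceral endoderm and liver, read 7.30, 7.29 and 7.32, and Cd3e, a chain of the T cell receptor complex, was at 7.24 ± 0.24 (SD, n = 3). The middle band thus held a T cell gene beside E2f2, a cell cycle factor (7.19, 7.29 and 7.20), and a level there does not separate an expressed gene from a silent one.

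Markers of differentiated lineages lay around and below that band. Of 85 markers of endoderm, mesoderm, neuroectoderm, trophectoderm, feeder fibroblasts and the 2-cell-like state, 65 (76.5%, against 68.3% of all genes) were above the receptor background, and 14 were above the highest blood, muscle or liver marker, which 36.8% of all genes were. Their median percentile was 45.2. Among endoderm factors, Gata6 read 7.41, 7.52 and 7.38, Gata4 7.53, 7.36 and 7.40, and Sox17 5.79, 5.81 and 5.76. The endoderm list was led by extracellular matrix genes, Sparc (11.08), Lamb1 (9.55) and Lama1 (8.51), with Dab2 (7.78) next and Ttr the lowest (5.20).

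None of the 15 mesoderm genes and none of the 15 neural genes was above the highest blood, muscle or liver marker on all 3 arrays. Eomes led the mesoderm list at 7.76, 8.03 and 7.84, followed by Nkx2-5 (7.67), Mesp2 (7.43) and Msgn1 (7.28), and Mesp1 was the lowest (5.65). Tubb3, the neuronal tubulin, led the neural list at 8.13, 8.13 and 8.30 and was above those markers in replicate 3, followed by Map2 (7.98), Pax6 (7.74) and Sox1 (7.66), and Dcx was the lowest (5.21). In trophectoderm, the simple-epithelium keratins Krt8 (9.79, 10.03 and 9.81) and Krt18 (9.17, 9.29 and 8.89) and the factors Tfap2c (9.30) and Tead4 (8.47) led, while the lineage-defining factor Cdx2 read 5.89, 5.81 and 5.92 and Elf5 was the lowest (5.57). Fibroblast feeder genes were split. Fn1 (12.12), Vim (11.78), Acta2 (9.19) and Mmp2 (9.07) were high, whereas the collagens Col1a1 (7.71) and Col3a1 (7.02) lay near the median gene and Postn (4.94), Fap (4.80) and Lum (4.62) lay at the floor. The labels do not mention feeder cells.

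In the 2-cell-like list, 5 of 13 genes were ranked: Eif1a (10.27), Usp17lc (8.32), Usp17la (7.81), Zfp352 (7.79) and Tcstv3 (5.72). The symbol Eif1a is that of a translation initiation factor, so its level does not mark the 2-cell-like state. Eif1a was counted among the 85 lineage markers and the 14 above the highest blood, muscle or liver marker. The Zscan4 genes were not analysed here. Of 22 germline genes 14 were above background (63.6%), near the 68.3% of all genes. Mael (10.36), Tdrd12 (10.29), Kit (9.91) and Sycp3 (9.28) led them, and Asz1 was the lowest (4.92).

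The floor of the ranking held sensory receptors, microRNA genes and tissue-specific enzymes and adhesion molecules. Of 1027 olfactory receptor genes 51 were above the background that they themselves largely set, and their median percentile was 7.6. Olfr1174, a pseudogene (9.09 ± 0.11, SD, n = 3), and Olfr767 (8.65, 8.37 and 8.57) were above every blood, muscle and liver marker. Of 34 protocadherins 4 were above background (median percentile 14.6), of 87 cytochrome P450 genes 22 (19.3), of 36 interleukins 10 (24.2) and of 48 keratins 23 (31.0). The P450 genes above the highest blood, muscle or liver marker numbered 5, led by Cyp20a1 (9.56), Cyp51 (9.31), which acts in cholesterol synthesis, and Cyp2s1 (8.95). Il6 lay among the lowest genes, at 4.27, 4.31 and 4.31.

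Non-coding RNAs spanned the full range. Of 675 long non-coding RNA genes 292 were above background and 6 in the top 5%. Lncenc1, a transcript known from naive ES cells, led them at 12.37, 12.38 and 12.35, ahead of Malat1 (11.78), Tug1 (11.27) and Gas5 (11.25), a host of small nucleolar RNAs. Small nucleolar RNA genes were mostly high, with 49 of 51 above background and Snora52 (12.42), Snord57 (11.66) and Snord49b (11.45) in front. At the very bottom was Rnu6, the U6 spliceosomal RNA, at 3.97, 3.95 and 3.97, although this RNA is abundant in all cells.

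MicroRNA genes were mainly at the floor, with 194 of 300 not above background, none in the top 5% and a median percentile of 21.0. A probe set of such a gene reads RNA from its locus, which can be the precursor or the host transcript, and whether it reads the mature form was not tested. Some members of the Mir17 and Mir106b clusters are shown beside 2 of the Mir302 family, all of which lay at the floor, because the seeds (bases 2 to 8, in capitals) of the printed sequences are alike: AAAGUGC in the first lines, AAGUGCU in the Mir302 lines, and AAGGUGC in miR-18a. The mature sequences are those of RefSeq (build GRCm38.p6), and 271 of the 300 genes were matched to the entries used here.
mmu-miR-17-5p: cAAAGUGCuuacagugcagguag
mmu-miR-20a-5p: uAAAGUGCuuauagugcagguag
mmu-miR-93-5p: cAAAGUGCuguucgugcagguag
mmu-miR-106b-5p: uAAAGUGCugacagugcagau
mmu-miR-18a-5p: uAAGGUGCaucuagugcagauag
mmu-miR-302b-3p: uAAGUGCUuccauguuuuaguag
mmu-miR-302d-3p: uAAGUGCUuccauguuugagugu

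Of the 6 genes with the seed AAAGUGC, 4 were above background. Mir17 read 6.57, 6.74 and 6.71, Mir20a read 6.77, 7.21 and 7.25, Mir93 read 7.56, 7.98 and 7.71, and Mir106b read 7.47, 7.81 and 7.39. Mir20b and Mir106a, of a cluster on the X chromosome, were below it. Mir18 was the highest of these clusters at 9.19, 8.99 and 8.93, and the host transcript Mir17hg read 8.46, 8.45 and 8.30. The 5 genes of the Mir302 and Mir367 cluster, whose microRNAs are known from the epiblast, all lay at the floor, between 4.43 (Mir367) and 5.20 (Mir302a). The Mir290 to Mir295 genes, the main microRNA cluster of mouse ES cells, were not analysed here. Of 9 let-7 genes, whose microRNAs promote differentiation and whose maturation Lin28a blocks, 4 were above background, from Mirlet7d (8.38) to Mirlet7c-1 (4.36) at the floor. Lin28a itself read 10.16, 10.17 and 10.31. Of the microRNA machinery 18 of 19 genes were above background, led by Dicer1 (10.85), Trim71 (10.53), Ago2 (10.47) and Drosha (10.47). Ago4 was at the floor (5.58).

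The promoters of high and low genes differed in base composition. Promoters rich in CpG dinucleotides are the usual kind at housekeeping genes, and a TATA box, which positions the start of transcription, is typical of tissue-specific genes. The promoters of 4 genes are shown to let these kinds be seen side by side. They include those of the highest ribosomal protein gene with an entry and of Pou5f1. The Hox promoter is that of the gene below the background with the highest ratio of observed to expected CpG. The olfactory receptor promoter is that of the lowest such gene with TATAAA in the usual position. Each is the 250 bases before the annotated start in RefSeq (GRCm38.p6), 5′ to 3′ on the gene's strand, with every CG dinucleotide in capitals.
Rps6, chr4:86857368-86857617, minus strand: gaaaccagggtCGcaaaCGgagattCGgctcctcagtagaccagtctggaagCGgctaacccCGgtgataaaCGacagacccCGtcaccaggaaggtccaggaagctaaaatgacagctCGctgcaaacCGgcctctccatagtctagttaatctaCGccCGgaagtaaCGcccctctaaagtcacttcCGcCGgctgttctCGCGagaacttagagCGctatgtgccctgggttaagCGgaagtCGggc
Pou5f1, chr17:35505782-35506031, plus strand: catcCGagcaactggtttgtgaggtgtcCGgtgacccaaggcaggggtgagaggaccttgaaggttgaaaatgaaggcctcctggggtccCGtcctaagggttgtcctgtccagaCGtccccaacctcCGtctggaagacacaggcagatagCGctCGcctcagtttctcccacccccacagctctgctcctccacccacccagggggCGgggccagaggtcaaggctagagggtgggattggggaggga
Hoxa5, chr6:52204588-52204837, minus strand: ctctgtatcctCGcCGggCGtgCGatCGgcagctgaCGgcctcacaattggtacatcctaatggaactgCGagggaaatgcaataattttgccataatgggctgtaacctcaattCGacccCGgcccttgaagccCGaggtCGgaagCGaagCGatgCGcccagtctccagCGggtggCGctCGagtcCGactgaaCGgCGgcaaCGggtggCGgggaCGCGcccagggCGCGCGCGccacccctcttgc
Olfr69, chr7:103771595-103771844, minus strand: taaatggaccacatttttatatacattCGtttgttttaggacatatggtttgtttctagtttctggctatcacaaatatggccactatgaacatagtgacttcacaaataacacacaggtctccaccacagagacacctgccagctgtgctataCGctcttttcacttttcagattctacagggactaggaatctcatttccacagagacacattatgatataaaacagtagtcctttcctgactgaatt

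Rps6 (13.02) held 19 CG dinucleotides in these 250 bases and Olfr69 (4.24) held 2. Hoxa5 (4.69), at the floor, held 28, and Pou5f1 (12.07), in the top 5%, held 8. In Olfr69, TATAAA started 31 bases before the annotated start. Over the full windows of 250 bases before to 50 after the start, the ratio of observed to expected CpG was 0.97 for Rps6, 0.37 for Pou5f1, 1.02 for Hoxa5 and 0.19 for Olfr69. Level and CpG ratio went apart in Pou5f1. They also did in Hoxa5, but that gene was picked for a high ratio at a level below the background.

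Across the ranking, 15005 of 18553 protein-coding genes (80.9%) had a promoter entry. Genes were split into 10 deciles of level, 1 being the lowest. A ratio above 0.6 was found in 3.70% of promoters in decile 1, 168 of 1404 in decile 2, 65.4% in decile 6 and 85.1% in decile 10. The median GC content was 39.3% in decile 1 and 62.0% in decile 10. In deciles 3 to 5, fewer than 80% of genes had an entry, and their shares were not read. Chemosensory receptor genes make up much of decile 1, and without them, predicted and small RNA genes 6.89% of its promoters were above 0.6. Genes above the receptor background had such promoters in 69.6% of cases, and genes that were not in 599 of 4449. The second group holds most of the chemosensory receptor genes that set this background. Without receptor, predicted and small RNA genes, fewer than 80% of it had an entry, so that share was not read.

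Motifs were searched on both strands of the window unless stated. TATAAA was in 34.5% of promoters of decile 1 and 6.85% of decile 10, against 12.2% of all. GC content also differed between these deciles, as given above, and its part in this difference was not tested. With the motif on the gene's strand and lying between 40 and 15 bases before the start, the shares were 5.14% in decile 1, 6.69% in decile 2 and 1.30% in decile 10. Among keratin-associated proteins, structural proteins of hair, 23 of 40 promoters had it there, against 2.65% of all promoters. CCAAT was in 40.8% of promoters in decile 1 and 41.5% in decile 10, against 38.2% of all. CCGGAAG, the core of ETS-type sites, was in 0.96% of promoters of decile 1 and 22.6% of decile 10, against 12.7% of all. This motif holds a CG, and the part of CpG and GC content in this difference was not tested. It was in 18 of 49 ribosomal protein promoters. CTCTTTCC, a pyrimidine run of the kind found at the starts of ribosomal protein genes, was in 6 of these 49, against 3.07% of all promoters. A match is a description of letters, not of a bound site.

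Of the core pluripotency genes 14 of 19 had a promoter entry, under 80%, so their share is not compared. Among these, Nanog (0.19), Esrrb (0.27), Lin28a (0.35), Pou5f1 (0.37) and Zfp42 (0.44) had low ratios, and Sox2 (0.82), Jarid2 (0.81), Fgf4 (0.77) and Trim28 (0.76) had high ones. Of the 11 PRC2 genes with an entry 10 were above 0.6, and of 22 glycolysis genes 11 were. The share was 53.0% among all protein-coding genes with an entry and 85.1% in decile 10. The median levels of these PRC2 and glycolysis genes, 11.304 and 10.465, lay in decile 10, with members of both lower. The glycolysis share was near that of all genes but below that of decile 10.

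**Figure D4:**
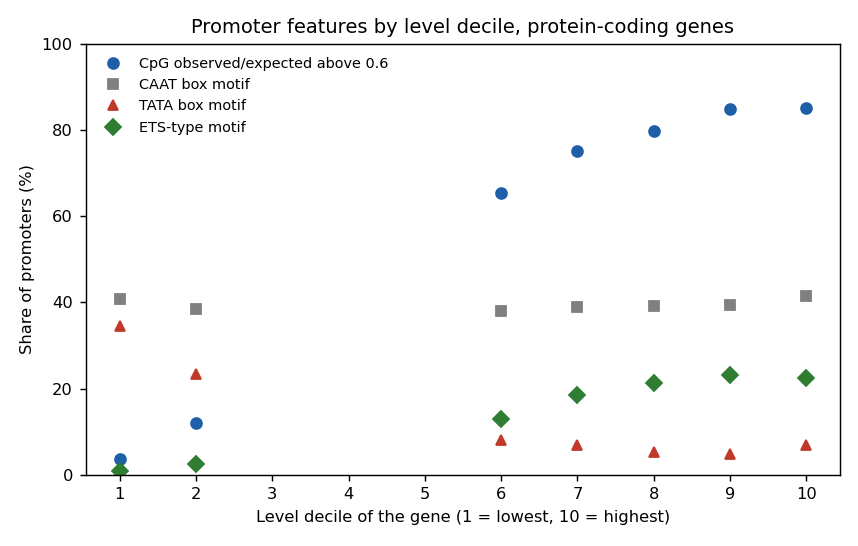
Share of promoters (y axis, percent) with a CpG ratio above 0.6 and with each of 3 motifs, by decile of level (x axis, 1 = lowest), for protein-coding genes of the 3 shLuc arrays; deciles 3 to 5 are left out because fewer than 80% of their genes had a promoter entry. The CpG-rich share was 3.70% in decile 1 and 85.1% in decile 10, the TATA box motif went from 34.5% to 6.85%, and the CAAT box motif was at 40.8% and 41.5%.

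Protein-coding genes of decile 1 were also short, with a median span in the genome of 4.63 kb. The median was 12.5 kb in decile 2, 23.2 kb in decile 10 and 19.2 kb over all protein-coding genes. Chemosensory receptor genes make up much of decile 1, and the span without them was not analysed here. The share above the receptor background was 60.7% on the X chromosome once receptor genes were left out, the lowest of the X and the numbered autosomes; it reached 81.2% on chromosome 11.

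Differences between the 3 control arrays were small for most genes. The median SD was smallest in decile 1 of level (0.027) and largest in decile 7 (0.087), and was 0.056 in decile 10. Levels on the arrays spanned more than 1 on the log2 scale in 11 genes and more than 0.5 in 277. In 9 of the 11 genes replicate 3 was the array apart, and in the other 2 it was replicate 2. The 10 genes with the largest SD above the receptor background included the immediate early genes Fos (8.74, 9.22 and 7.76) and Fosb (8.92, 9.28 and 8.21), both lowest in replicate 3. Mir363 (7.88, 8.01 and 6.57), Mir15a (7.86, 7.95 and 6.89), Copz2 (8.83, 9.04 and 7.78) and Greb1l (7.89, 8.05 and 7.02) were lowest there too. Nefl (8.56, 8.50 and 9.61), a neurofilament gene, Zfp428 (7.63, 7.67 and 8.66) and Chac1 (8.11, 8.10 and 9.04), a glutathione-degrading enzyme of the stress response, were highest in replicate 3. Bgn (6.48, 7.30 and 6.30) was the gene of the 10 in which replicate 2 stood apart. None of the 20 highest genes was among these 10, and no core pluripotency gene was. The 10 were taken from the 13620 genes above the background, predicted genes aside, so a small group would rarely have a member there.

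**Figure D5:**
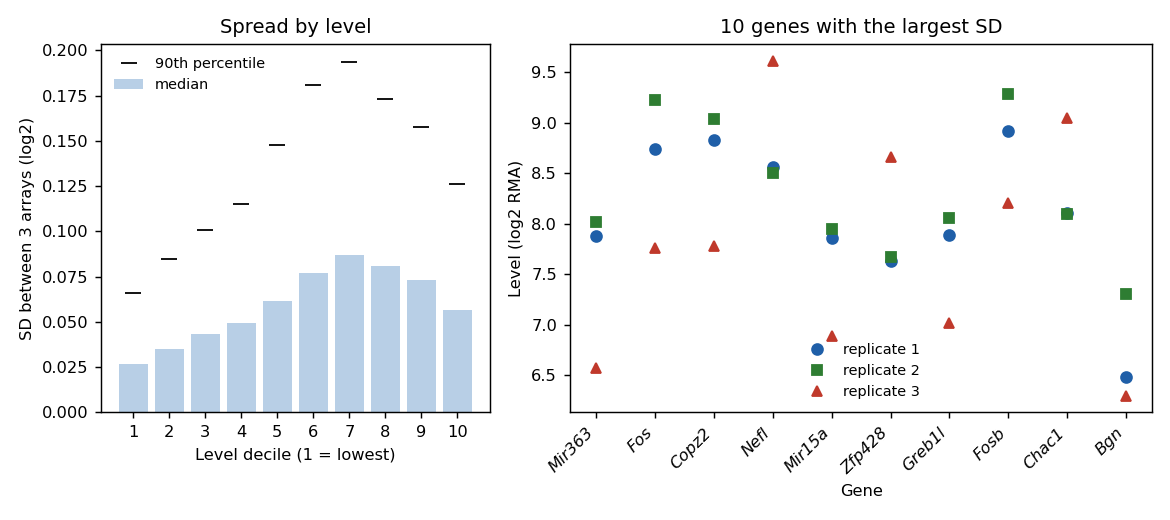
Left, SD between the 3 shLuc arrays (log2, y axis) by decile of level (x axis), with bars for the median and dashes for the 90th percentile; right, level (log2 RMA, y axis) on each array for the 10 genes above the receptor background with the largest SD (x axis). The median SD peaked at 0.087 in decile 7, and replicate 3 stood apart in 9 of the 10 genes.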

How the data were processed

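The 3 shLuc arrays of the series (9 arrays in all) were used. The deposited values are log2 levels per probe set; the authors made them with RMA in Partek 6.6, per the submitters' processing notes, and the log base was read from their range. RMA as a rule gives arrays a common distribution, which would remove differences in total RNA; the set of arrays it was run on is not stated in the labels. Probe sets were named from GEO's platform annotation and matched to RefSeq by gene ID (19853 of 19938 genes). Each gene was its brightest probe set with a single symbol. There was 1 group, so no test was made and no p-value is given. Families were picked by symbol pattern and lists written by hand; the description, members and lists were chosen with earlier results of these data known. Named genes are the 20 highest, up to 4 highest and the lowest of each list (every member of lists of 12 or fewer), up to 3 highest of each family, the fixed cell type markers, the 10 with the largest SD, and listed genes within 1 percentile of the median; other named genes were chosen after their values were seen. Promoter windows and mature microRNAs came from RefSeq (GRCm38.p6), matched by symbol, with the first entry of a gene where it had several. Protein features were not analysed here. The ranking step was tested on simulated data. Python 3.11.15, numpy 2.4.6, pandas 2.3.3, scipy 1.17.1 and matplotlib 3.10.9 were used.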

Additional observations from a re-analysis of the deposited data

How the results depend on the processing

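No paired analysis was possible because only 1 group was described and no test was made. The number of genes above the receptor background, 13620, depended on the reference. With the 95th percentile of keratin-associated and defensin genes it was 8484, and above every blood, muscle and liver marker, a bar chosen after seeing the data, it was 7344. The 65 lineage markers above background became 38 with the 99th percentile of the receptor genes, 19 with the keratin-associated and defensin genes, and 14 with the tissue markers. Centring array medians gave 13620 genes and a second quantile normalization 13621. The cut is set within each array and moves with its levels, so neither step could change this count much. Averaging the probe sets within each gene gave 13611. Leaving out 1 array in turn gave 13654 to 13723, but fewer arrays then had to pass, so the count could hardly fall. Ribosomal proteins in the top 5% numbered 47 to 49 and core pluripotency genes 13 to 14 under the alternatives tried. Without predicted, small RNA and receptor genes, CpG-rich promoters in decile 1 of level went from 3.70% to 6.89%, and TATAAA from 34.5% to 25.2%. Averaging probe sets within a gene moved the median percentile of a family or list by at most 4.67, and leaving out an array by at most 1.70. Of the 10 genes with the largest SD, 9 were the same when all genes were ranked. The number of arrays, 3, limits the precision, and probe response is not separated from RNA amount.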

Other observations

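Some places in the ranking rest on a single probe set of several. Baiap2l1, second in the ranking, had 3 probe sets, which read 8.35, 8.66 and 7.80, then 11.97, 11.97 and 11.92, and 13.33, 13.29 and 13.27 on the arrays. Gabarapl2 had 2, with means of 12.08 and 6.63, and Btf3 had 2, with means of 12.05 and 6.92. Among genes outside the ranking, 25 probe sets annotated to Gapdh together with other symbols had means from 12.94 to 13.29, and 1 probe set with several symbols lay above the highest gene, at 13.48. Of the 1578 probe sets with several symbols 466 were above the entry to the top 5%, and of the 5500 with no symbol 247 were.

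Some pairs of paralogs lay in opposite bands. Actl6a read 11.98 and Actl6b 6.04, Rad21 11.25 and Rad21l 4.90, Pgk1 12.40 and Pgk2 4.80, Cct6a 11.94 and Cct6b 5.61, and Rpl3l lay at 5.67 among ribosomal proteins with a median of 12.06. These pairs were picked after their values were seen.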
